A study of Mus musculus with 4 samples.

Results

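The genes described here, 10 in number, encode the insulator factor CTCF (Ctcf), the cohesin subunits Smc1a, Smc3, Rad21, Stag1 and Stag2, the cohesin loader Nipbl, the release factor Wapl, and the cohesin regulators Pds5a and Pds5b. They were taken by name, with no cut on a measured value, from the 54842 gene identifiers in the deposited count table. Earlier results of these data were known when they were chosen. All 10 were found and tested. RNA-seq was done on wild-type (wt) mouse embryonic fibroblasts (MEF cells) and on MEF cells null for topoisomerase 2beta (Top2β-null), 2 libraries per genotype, to ask whether Top2β has a topological role in the transcription of repeats. Both groups were untreated and were grown in the same high-glucose DMEM with serum, and the RNA was depleted of ribosomal RNA before stranded libraries were made. The Top2β-null cells derive from null mice, and were a gift from other laboratories, while the wt cells are credited to a different source, so genotype and origin of the line cannot be told apart. The labels do not say whether the 2 libraries of a group came from separate cultures, and the p-values may then measure technical spread only.

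Cohesin is a ring that holds DNA. Its arms are the SMC1A and SMC3 ATPases, the kleisin RAD21 closes them, and STAG1 or STAG2 binds the kleisin. NIPBL, with its partner MAU2, loads cohesin and drives the extrusion of chromatin loops, CTCF bound to its motif stops them, and WAPL with a PDS5 protein opens the ring and releases it from chromatin. The same ring holds sister chromatids together until mitosis. TOP2B cuts both strands of DNA to pass another duplex through the break, and is known to lie next to CTCF and cohesin at the borders of loops, which is why these genes are of interest in cells that lack it.

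Library totals were between 133116830 and 149647278 counts, and each of the 10 genes had between 10108 and 47215 counts in every library, so counting error was small. The spread between the 2 replicates of a group was at most 3.63% of the mean (coefficient of variation) for each of them. Top2b had 18259 and 18465 normalized counts (counts scaled to a common library size) in wt and 3879 and 3789 in Top2β-null. Thus 20.9% of the wt RNA level remained (log2 fold change -2.26 ± 0.027 SE, adjusted p = 6.56e-19). The study reports a Western blot in which the Top2β protein was absent from the Top2β-null cells. The p-values came from the quasi-likelihood test of edgeR and were adjusted by Benjamini-Hochberg over all features, here and below unless another tool is named. All 8 fibroblast markers were detected in both genotypes, but their summed level was lower in Top2β-null, 881139 to 886071 against 1301850 to 1326360 normalized counts. The single markers did not move together: 4 were lower, Col1a1, Col3a1, Vim and Fn1, 3 were higher, Thy1 (4.21-fold), Pdgfrb (3.68-fold) and Twist1 (1.84-fold), and Col1a2 did not pass the test. The leukocyte markers summed to 1649 to 1699 in wt and 296 to 307 in Top2β-null, nearly all of it Cd68, while Ptprc was at most 6.76 and Tyrobp was at 0. The endothelial markers summed to 162 to 165 normalized counts in wt and 252 to 259 in Top2β-null, where Kdr was higher (2.91-fold), with Emcn at most 0.99. The epithelial markers summed to 69.6 to 71.5 in wt and 19.7 to 20.8 in Top2β-null, with Epcam at most 3.11. Of these low markers, Tek, Krt8 and Cdh1 reached 10 counts in the wt libraries alone, so they entered the test only through the group where they are high, and no call is drawn from them. The neural markers, mainly Tubb3 and Map2, summed to 5515 to 5605 in wt and 7431 to 7738 in Top2β-null, where Tubb3 was higher (2.21-fold) and Map2 (log2 fold change -0.18) and Sox10 (-1.78) were lower. The part of these differences in the results was not tested, and in bulk RNA fewer cells of a type and less RNA per cell cannot be told apart.

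The 10 genes passed the test about as often as genes with a mean of at least 1000 normalized counts, and their changes were small. At an adjusted p of 0.05, 8 of the 10 genes passed the test, where 65.0% of all 26566 features tested passed it, and 85.0% of the 9813 genes with a mean of at least 1000 normalized counts. In Top2β-null, 6 genes were higher (Pds5b, Ctcf, Pds5a, Smc3, Stag1 and Wapl), and 32.5% of all features were higher. Rad21 and Nipbl were lower, where 32.5% of all features were lower. Smc1a and Stag2 did not pass. The median log2 fold change of the 10 genes was 0.10 (range -0.42 to 0.75), against -0.0058 over all genes tested. Of the genes with a mean of at least 1000 normalized counts, 38.9% were higher and 46.1% were lower.

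None of the 10 genes passed the stricter cut-offs (adjusted p below 0.05, absolute log2 fold change above 1 and mean normalized count above 100), which 10.2% of all features passed. The count was 0 with edgeR and with DESeq2 alike, since no absolute log2 fold change was above 1, while 8 genes had an unadjusted p below 0.05 with edgeR and 8 passed the adjusted p with DESeq2. Against a fold change of 1.2, instead of no change, 3 genes passed (Pds5b, Ctcf and Rad21), where 43.6% of all features did. The wt and Top2β-null libraries did not overlap for 9 genes, all except Smc1a, where 80.5% of all features had groups that did not overlap. For 7 of the 10 genes the absolute log2 fold change was below 0.31, the median of genes with a mean of at least 1000 normalized counts. The plot of normalized counts by library and the plot of fold changes give the 10 genes side by side.

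**Figure D1:**
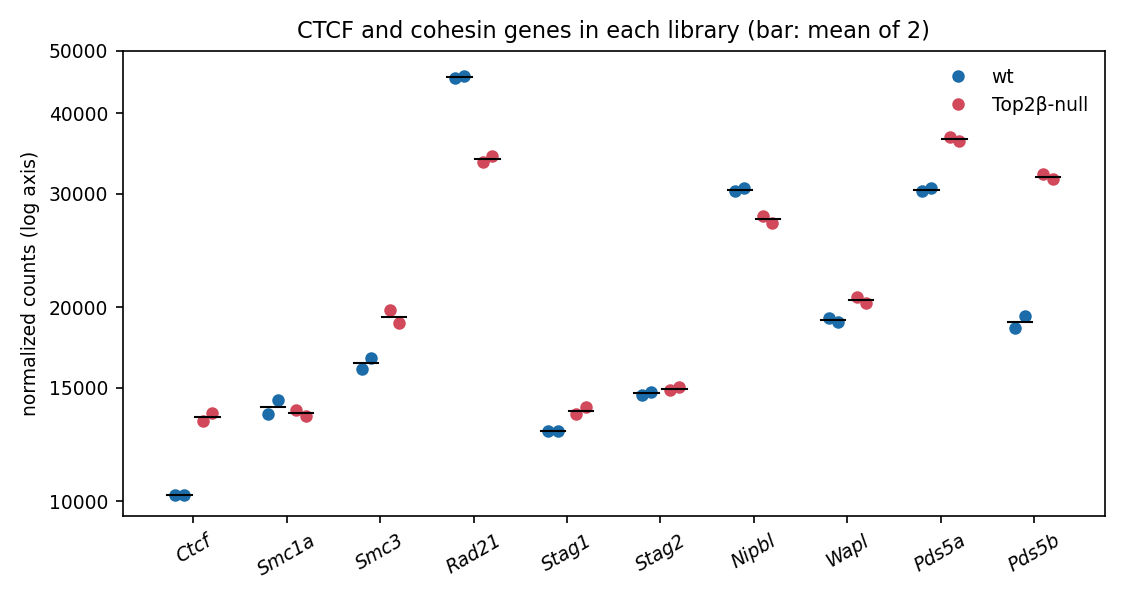
Normalized counts of the 10 genes on a log axis in each of the 4 libraries (points; wt blue, Top2β-null red), with a bar at the mean of each genotype. The Top2β-null libraries lie above both wt libraries for Pds5b and Ctcf and below them for Rad21, and Smc1a is the gene whose groups overlap.

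**Figure D2:**
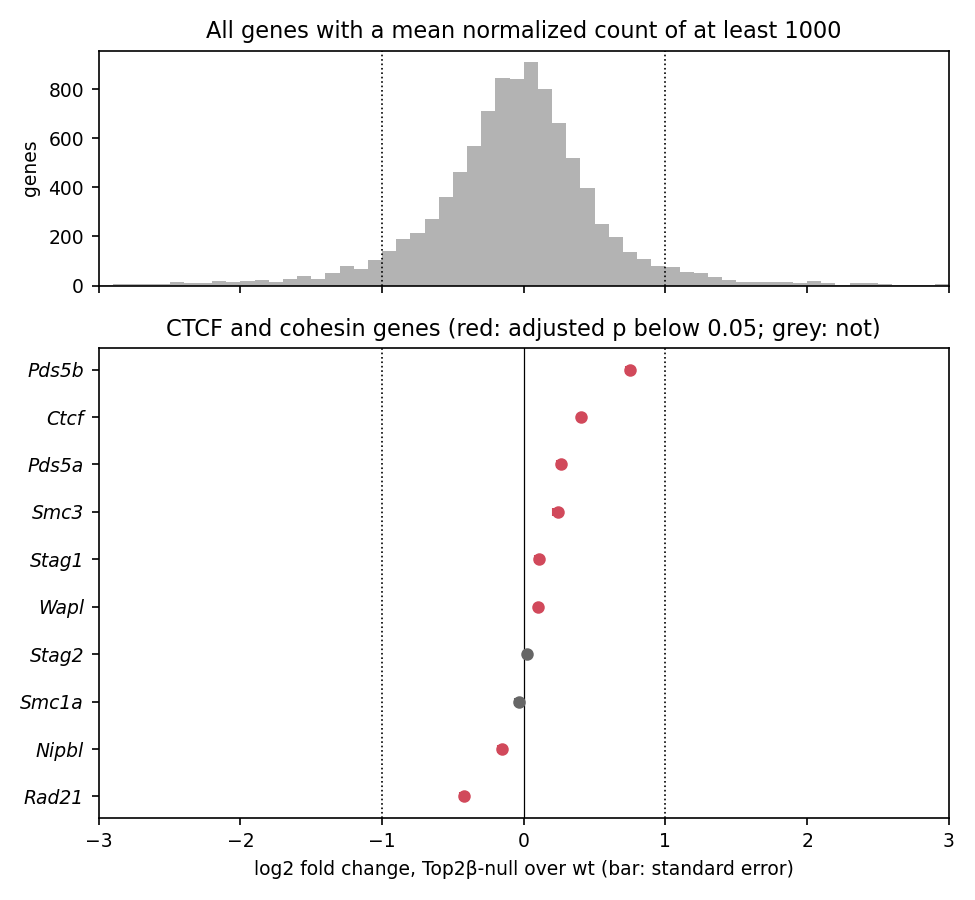
Log2 fold change (Top2β-null over wt) of the 10 genes with its standard error (red where the adjusted p is below 0.05, otherwise grey; dotted lines at -1 and 1), under a histogram of the 9813 genes with a mean of at least 1000 normalized counts, of which 205 lie outside the axis. The genes lie between -0.42 and 0.75, and 7 of the 10 are below the median absolute change of 0.31.

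CTCF is the zinc finger protein that binds the insulator motif and stops loop extrusion. Ctcf (ENSMUSG00000005698.15, chr8:105636568-105682922, forward strand, GRCm38) had 10202 and 10205 normalized counts in wt and 13318 and 13713 in Top2β-null. Both Top2β-null libraries were above both wt libraries. The group means were 10203 ± 1.84 in wt and 13516 ± 280 in Top2β-null (SD, n = 2), an increase of 1.32-fold (log2 fold change 0.41 ± 0.026, adjusted p = 6.81e-10). Its change also passed the test against a fold of 1.2 (adjusted p = 1.8e-05). Of the genes with a mean of at least 1000 normalized counts, 39.7% changed by at least as much. At the Ctcf locus, 6.55% of the 50-base words of its exons also occur in another gene, and the genes that share exon bases with it, Gm5914 (370 bases) and Agrp (114 bases), lie on the opposite strand. Gm5914 (log2 fold change 0.80, adjusted p = 0.00041) and Agrp (0.59, adjusted p = 0.011) were higher in Top2β-null too. Whether the counting used the strand is not stated in the sources used here, so reads from the shared bases could be assigned either way.

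Of the ring subunits, Rad21 was lower in Top2β-null, Smc3 was higher and Smc1a did not pass the test. Rad21 encodes the subunit that bridges the SMC heads and that separase cuts at anaphase. Rad21 (ENSMUSG00000022314.10, chr15:51962240-51991747, reverse strand) had 45331 and 45605 normalized counts in wt and 33568 and 34352 in Top2β-null. Neither Top2β-null library reached the lower wt library. The means were 45468 ± 194 and 33960 ± 554 (SD, n = 2), which put Top2β-null at 0.747 of wt (log2 fold change -0.42 ± 0.026, adjusted p = 4.34e-10). Against a fold of 1.2 the change also passed (adjusted p = 6.4e-06), and 37.9% of the genes of at least 1000 normalized counts changed at least as much.

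Smc3, one of the ATPase arms and the target of cohesin acetylation, went the other way. Smc3 (ENSMUSG00000024974.10, chr19:53600398-53645833, forward strand) had 16057 and 16703 normalized counts in wt and 19767 and 18894 in Top2β-null. The groups did not overlap, with means of 16380 ± 457 and 19331 ± 617 (SD, n = 2). The increase was 1.18-fold (log2 fold change 0.24 ± 0.029, adjusted p = 1.88e-06), and it did not pass against a fold of 1.2 (adjusted p = 0.78).

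Smc1a encodes the other ATPase arm. Smc1a (ENSMUSG00000041133.11, chrX:152016428-152062694, forward strand) had 13655 and 14374 normalized counts in wt and 13853 and 13559 in Top2β-null. One Top2β-null library lay between the wt libraries, so the groups overlapped. The log2 fold change was -0.032 ± 0.028 (adjusted p = 0.34), a difference within the spread between replicates. Its sign turned with scaling to the total count (0.038), and it passed the test without wt replicate 1 (-0.083, adjusted p = 0.038).

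Of the alternative STAG subunits, Stag1 passed the test and Stag2 did not. STAG1 and STAG2 occupy the same place on the kleisin, so a ring holds one or the other, and both contact CTCF. Stag1 (ENSMUSG00000037286.15, chr9:100597798-100959375, forward strand) had 12848 and 12837 normalized counts in wt and 13654 and 13982 in Top2β-null. The groups did not overlap, and the log2 fold change was 0.11 ± 0.025 (adjusted p = 0.0015), an increase of 1.08-fold. The log2 fold change was 0.18 with scaling to the total count and 0.16 without Top2β-null replicate 1. Stag2 (ENSMUSG00000025862.14, chrX:42149317-42277185, forward strand) had 14600 and 14779 normalized counts in wt and 14850 and 15012 in Top2β-null. Both Top2β-null libraries were above both wt libraries here too, but the distance was small (log2 fold change 0.023 ± 0.024, adjusted p = 0.42). Stag2 passed with scaling to the total count (0.093, adjusted p = 0.0040) and without Top2β-null replicate 1 (0.070, adjusted p = 0.019).

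The loader gene was slightly lower and the release gene slightly higher in Top2β-null. NIPBL is the large protein that loads cohesin and activates its ATPase. Nipbl (ENSMUSG00000022141.7, chr15:8290617-8444463, reverse strand) had 30277 and 30615 normalized counts in wt and 27689 and 27045 in Top2β-null. The groups did not overlap, the Top2β-null mean was 0.899 of the wt mean, and the log2 fold change was -0.15 ± 0.025 (adjusted p = 5.53e-05). With scaling to the total count it was smaller, -0.084 (adjusted p = 0.0087).

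WAPL, the factor that opens the ring, is encoded by Wapl (ENSMUSG00000041408.18, chr14:34673928-34747983, forward strand), which starts 18.3 Mb from the start of Top2b on the same chromosome. Wapl had 19250 and 18981 normalized counts in wt and 20728 and 20305 in Top2β-null. The Top2β-null libraries were both higher (1.07-fold, log2 fold change 0.10 ± 0.025, adjusted p = 0.0018). With scaling to the total count the log2 fold change was 0.17. The call was lost without wt replicate 2 (0.077, adjusted p = 0.052). Neither Nipbl nor Wapl passed the test against a fold of 1.2 (both adjusted p = 1).

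Pds5b changed most of the 10 genes, and its paralog Pds5a much less. PDS5A and PDS5B bind the kleisin, where they take part both in release by WAPL and in the acetylation of SMC3. Pds5b (ENSMUSG00000034021.15, chr5:150673739-150810690, forward strand) had 18578 and 19372 normalized counts in wt and 32156 and 31606 in Top2β-null. The lower Top2β-null library was well above the higher wt library. The means were 18975 ± 561 and 31881 ± 388 (SD, n = 2), an increase of 1.68-fold (log2 fold change 0.75 ± 0.027, adjusted p = 5.16e-13). It passed against a fold of 1.2 (adjusted p = 2.3e-11), and 18.6% of the genes of at least 1000 normalized counts changed at least as much.

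Pds5a (ENSMUSG00000029202.12, chr5:65605721-65698273, reverse strand) had 30290 and 30593 normalized counts in wt and 36702 and 36205 in Top2β-null. Its groups did not overlap either. The increase was 1.197-fold (log2 fold change 0.26 ± 0.025, adjusted p = 1.31e-07), and it did not pass against a fold of 1.2 (adjusted p = 0.48). Both genes lie on chromosome 5, and their exons share 0 words of 50 bases, so reads of that length from one do not match the exons of the other.

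The promoters of both PDS5 genes are shown because these paralogs carry the largest and the third largest increase among the 10 genes. The sequences are the bases of the RefSeq promoter windows (GRCm38.p6) that lie before the annotated start and outside every annotated exon, written 5′ to 3′ on the strand of the gene. Capitals mark the letters TTTGGCGC of an E2F motif, found on the opposite strand, in Pds5a and the letters GGGCGG of a GC box in Pds5b. The GC box of Pds5a and the CCAAT letters of Pds5b, named further below, lie in bases of the windows that are not printed. The Pds5a stretch is chr5:65698274-65698486 on the reverse strand (213 bases, 80.3% GC) and the Pds5b stretch is chr5:150673577-150673738 on the forward strand (162 bases, 80.2% GC).
Pds5a: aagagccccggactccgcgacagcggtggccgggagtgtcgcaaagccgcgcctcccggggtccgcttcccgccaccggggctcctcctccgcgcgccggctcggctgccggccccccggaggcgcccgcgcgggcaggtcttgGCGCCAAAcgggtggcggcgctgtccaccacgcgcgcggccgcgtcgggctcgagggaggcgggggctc
Pds5b: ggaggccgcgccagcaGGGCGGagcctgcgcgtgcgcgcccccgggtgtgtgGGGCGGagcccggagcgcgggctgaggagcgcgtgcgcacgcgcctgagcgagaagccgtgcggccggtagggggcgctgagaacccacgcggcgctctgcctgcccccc

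Genes annotated inside the PDS5 genes were also counted. Gm43807, a sense intronic transcript within Pds5b that shares 0 exon bases with it, had 274.5 and 336 normalized counts in wt and 583 and 637 in Top2β-null. Both Top2β-null libraries were higher (log2 fold change 1.00 ± 0.094, adjusted p = 1.1e-07), the same direction as Pds5b itself. In all, 18 annotated genes lie over one of the 10 genes, 7 of them on the same strand, and of these 7 tested genes 4 were higher in Top2β-null and 0 were lower, where 32.5% of all features were higher and 32.5% were lower. The other same-strand genes that were higher were Gm24630 in Pds5b (log2 fold change 0.68, adjusted p = 0.011), C030017G13Rik in Pds5a (0.32, adjusted p = 0.00048) and Gm37204 in Stag1 (0.24, adjusted p = 0.039). On the opposite strand, Gm42727, which shares 255 exon bases with Pds5a, had 1903 and 1895 normalized counts in wt and 2238 and 2248 in Top2β-null (log2 fold change 0.24, adjusted p = 0.00015). For such overlapping genes, reads of a gene and its neighbour may not have been told apart.

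Ratios of counts within a library need no scaling between libraries, and 4 of them were taken between genes with paired or opposed roles. The log2 ratio of Pds5a to Pds5b was 0.71 and 0.66 in wt and 0.19 and 0.20 in Top2β-null. It fell by 0.49, against a pooled replicate SD of 0.023. The log2 ratio of Smc1a to Smc3 was -0.23 and -0.22 in wt and -0.51 and -0.48 in Top2β-null, lower by a difference of -0.27 (pooled SD 0.019).

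The log2 ratio of Nipbl to Wapl, loader against release factor, was 0.65 and 0.69 in wt and 0.42 and 0.41 in Top2β-null, a difference of -0.26 (pooled SD 0.018). The smallest shift was that of Stag1 to Stag2, from -0.18 and -0.20 in wt to -0.12 and -0.10 in Top2β-null, a difference of 0.082 (pooled SD 0.013). For none of the 4 ratios did the groups overlap, and every difference was larger than the replicate spread. The two-sided exact permutation test over 2 against 2 libraries cannot go below 0.33, which was its p for each ratio, so these differences could not pass a threshold of 0.05 by it.

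**Figure D3:**
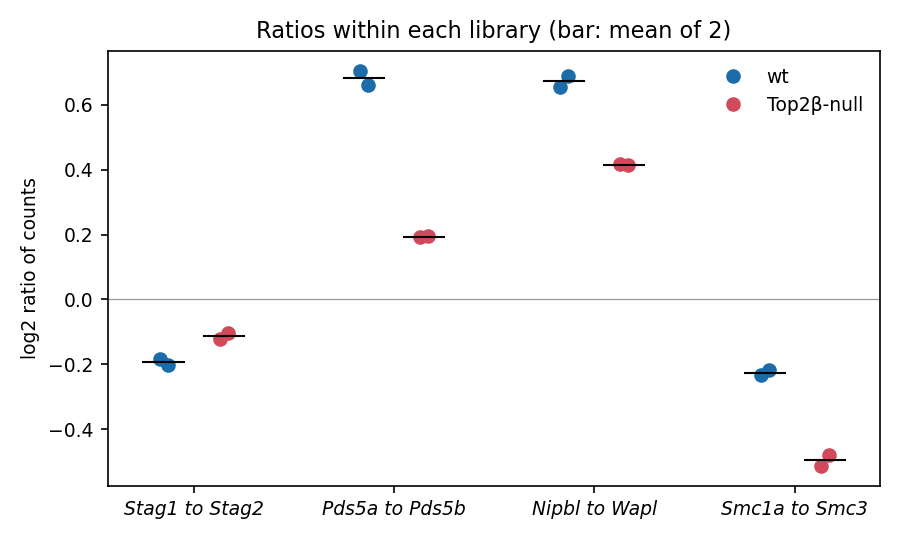
Log2 ratio of counts within each library for the 4 gene pairs, with 1 point per library and a bar at the mean of 2. The Pds5a to Pds5b ratio is 0.66 to 0.71 in wt and 0.19 to 0.20 in Top2β-null, and no pair has groups that overlap.

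Levels of the 10 genes were compared with those of other genes only as normalized counts per kilobase of merged exons. On this scale Rad21 was the highest of the 10 genes in both genotypes, with a level of 10744 ± 45.7 in wt and 8025 ± 131 in Top2β-null (SD, n = 2), above 97.9% of the genes tested. Stag1 was the lowest, at 1090 ± 0.644 in wt and 1173 ± 19.7 in Top2β-null, but still above 78.9% of genes. In wt the order of levels was Rad21, Nipbl, Smc3, Wapl, Smc1a, Ctcf, Pds5b, Stag2, Pds5a and Stag1. Smc3 (2898 to 3014) and Wapl (2866 to 2906) were the only neighbours in this order whose libraries overlapped.

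In Top2β-null the order of levels was Rad21, Smc3, Pds5b, Wapl, Nipbl, Ctcf, Smc1a, Pds5a, Stag2 and Stag1, and no neighbours overlapped. Pds5b moved from rank 7 to rank 3, from 1929 ± 57.0 to 3240 ± 39.5 per kilobase, while Nipbl moved from rank 2 to rank 5, from 3231 ± 25.4 to 2904 ± 48.3. The order depends on the gene length used. With the longest transcript in place of merged exons, the wt level of Pds5a was 3407 instead of 1574 per kilobase, because its merged exons span 19335 bases.

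**Figure D4:**
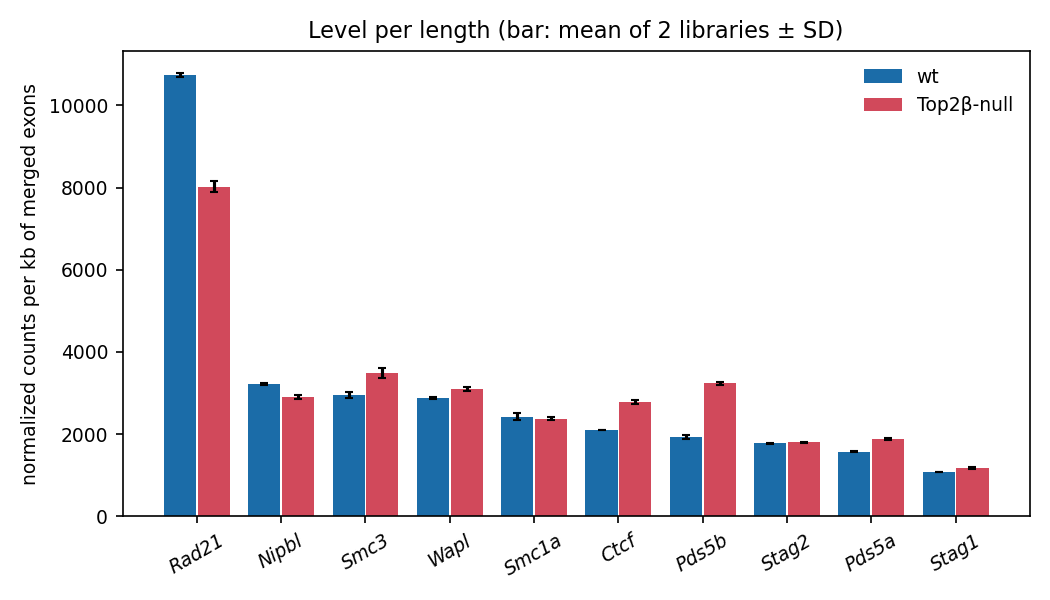
Normalized counts per kilobase of merged exons for the 10 genes, with bars from 0 to the mean of 2 libraries and error bars of 1 SD (wt blue, Top2β-null red). Rad21 lies above the other genes in both groups, and Pds5b moves from 1929 to 3240 per kilobase.

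As shares of a paralog pair on the per-kilobase level, Stag1 made up 38.04% ± 0.218 of Stag1 plus Stag2 in wt and 39.4% ± 0.217 in Top2β-null (SD, n = 2). Pds5a made up 45.0% ± 0.558 of Pds5a plus Pds5b in wt and 36.8% ± 0.059 in Top2β-null. With the length of the longest transcript the Pds5a share was 57.1% in wt and 48.7% in Top2β-null, so which paralog was the more abundant in wt turned with the length, while the fall of the share did not.

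In the set of RefSeq promoters used here, windows of 250 bases before the start were present for 7 of the 10 genes (Ctcf, Pds5a, Pds5b, Smc1a, Smc3, Stag1 and Wapl). They lie before the RefSeq start, which can differ from the start of the gene model given above: the Stag1 window (chr9:100643198-100643447) lies inside that gene model, and the Pds5a and Pds5b windows run past its start. All 7 were above the median in G and C, between 56.8% for Smc1a and 80.4% for Pds5a. The median was 52.4% over the 32851 promoters of the set, which does not cover every chromosome, and 36.4% of them had at least the GC of Smc1a. The ratio of observed to expected CpG was 0.79 to 1.14, against a median of 0.37, and 19.4% of all promoters had at least the lowest of these ratios. A GC box (GGGCGG, either strand) was found in 7 of the 7, against 32.7% of all promoters, a share not matched for GC content. The letters CCAAT were found in 4 of them (Pds5b, Smc1a, Stag1 and Wapl), as in 33.9% of all. The E2F letters TTTGGCGC were found in Pds5a alone (0.417% of all promoters) and TTTCCCGC in Stag1 alone (0.895%). The core of the CTCF motif was in none of the 7 windows, including that of Ctcf, as against 0.371% of all promoters. Nor did any of the 7 hold the letters CCGGAAG of an ETS motif (6.91% of all), AAGATGGC of YY1 (1.56%), TATAAA of the TATA box (12.4%) or the NRF1 motif (0.782%). Genes that were higher (Pds5b, Ctcf, Pds5a) and the gene that did not pass (Smc1a) thus shared the GC box, and a match of letters is a description only.

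Other genes of the pathway were read from 4 lists, and 26 of 31 tested genes passed the test, 10 of them higher and 16 lower in Top2β-null. For comparison, 65.0% of all features passed (32.5% in each direction), and 85.0% of the genes of at least 1000 normalized counts, so neither this count nor those of the single lists below set these genes apart. Their median log2 fold change was -0.19. One gene, Esco2, passed the stricter cut-offs. Among the 12 genes of loading, acetylation and cohesion establishment, 4 were higher, 7 were lower and 1 did not pass (median -0.27). Esco2, an acetyltransferase that acts on SMC3 during replication, had 5431 and 5226 normalized counts in wt and 2364 and 2388 in Top2β-null. The groups were well apart, with Top2β-null at 0.446 of wt (log2 fold change -1.16 ± 0.036, adjusted p = 7.32e-14). Chtf8, a subunit of the alternative clamp loader and the gene with the largest mean count of this list (not corrected for length), had 21436 and 21262 in wt and 16295 and 16665 in Top2β-null (log2 fold change -0.37 ± 0.025, adjusted p = 1.23e-09). Mau2, the partner of Nipbl in loading, was named after its values were seen, and it was higher (7210.5 and 7143 against 9322 and 9076 normalized counts, log2 fold change 0.36 ± 0.026, adjusted p = 4.64e-09). The transcripts of the 2 loader subunits therefore changed in opposite directions.

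Among the 8 genes of cleavage and protection at mitosis, 3 were higher, 4 were lower and 1 did not pass (median -0.052). Espl1, which encodes separase, the protease that cuts RAD21, had 28533 and 28951 normalized counts in wt and 19292 and 19849 in Top2β-null (log2 fold change -0.55 ± 0.026, adjusted p = 1.21e-11). Transcripts of the protease and of its substrate Rad21 were thus both lower. Of the 5 germline paralogs, 3 were tested and all 3 were lower, at low counts. Rec8, the meiotic kleisin, had 136 and 101 normalized counts in wt and 69.4 and 88.1 in Top2β-null (log2 fold change -0.59 ± 0.20, adjusted p = 0.018), and the call was lost with DESeq2 (adjusted p = 0.075).

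Among the 8 looping and CTCF co-factors, 3 were higher, 2 were lower and 3 did not pass (median 0.011). Chd8, a remodeler that binds CTCF, had 19759 and 20214 normalized counts in wt and 20109 and 19880 in Top2β-null, and its groups overlapped (adjusted p = 0.99). The 12 proliferation genes are given beside these lists, since cohesin genes serve dividing cells: 5 were higher, 4 were lower and 3 did not pass (median -0.023), and their summed level was 279149 and 286703 in wt and 288949 and 289143 in Top2β-null. Mki67, with the largest mean count of the list (not corrected for length), had 76564 and 82448 in wt and 88572 and 85687 in Top2β-null (log2 fold change 0.13 ± 0.034, adjusted p = 0.0028). The part of cycling in the changes of the cohesin genes was not tested. The plot of the lists gives each gene by its list.

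**Figure D5:**
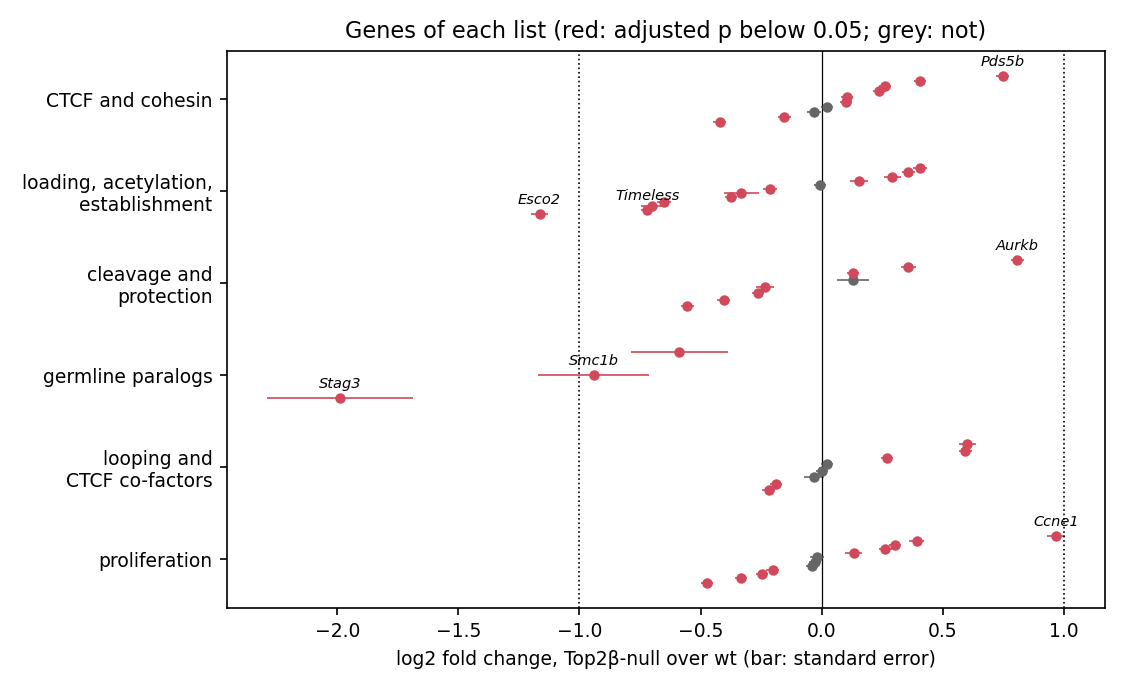
Log2 fold change (Top2β-null over wt) of each tested gene in the lists, grouped by role, with its standard error (red where the adjusted p is below 0.05, otherwise grey; dotted lines at -1 and 1). Esco2 is at -1.16 in the establishment list, and the proliferation genes spread to both sides of 0 with a median of -0.023.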

How the data were processed

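Total RNA of MEF cells was depleted of ribosomal RNA and sequenced as stranded paired-end libraries. The authors trimmed the reads with Trim Galore!, aligned them with STAR to mm10 (GRCm38), keeping reads with many alignments, and counted genes and repeat families together with TEtranscripts. The deposited values are raw counts, not normalized; the mode and strand setting of the counting are not given in the sources used here. Multi-mapping reads can be shared between repeats and genes, which can change the counts of genes that hold repeats. Of 54842 gene identifiers, 54409 were matched to a symbol, and 1562 repeat families were kept in the fit.

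Features were tested where 2 or more libraries held 10 counts or more (25085 genes and 1481 repeat families) with edgeR 4.0.16 in R 4.3.3 (quasi-likelihood test, TMM factors, genotype as the only term, all 4 libraries), with Benjamini-Hochberg adjustment over all of them. An SE is the absolute log2 fold change over the root of the F statistic. DESeq2 1.42.0, the tool of the authors, and other scalings, filters and tests were the alternatives. Replicates were kept as 2 samples per group, since their counts differed beyond sampling noise (a chi-square over its degrees of freedom of 3.65 for wt and 5.07 for Top2β-null). The fitting was tested on simulated data. A first run that included less abundant features missed its criterion for DESeq2, which recovered too few of the changed features. The test was then restricted to features with a mean of at least 1000 normalized counts, a limit that all 10 genes lie above. Calls of genes at low counts, such as the germline paralogs, were therefore not covered by it. The sizes of change used in it are not stated here, so nothing is drawn from it about changes as small as those of the 10 genes. Gene models were from GENCODE M21 on GRCm38.

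The 10 genes and the lists were chosen with earlier results of these data known. Named were the 10 genes, Top2b, genes annotated over them and, from each list, genes past the stricter cut-offs (those stated in the methods of the study) and the gene with the largest mean. Any other gene is said to be named after its values were seen, apart from the cell type markers.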

Additional observations from a re-analysis of the deposited data

How the results depend on the processing

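DESeq2, TMM factors from genes only, both other filters and fitting genes alone kept the direction and the call of each of the 10 genes. Scaling to the total count moved the median of all genes to 0.064, turned Smc1a to 0.038 (no call) and gave a call to Stag2 (0.093). It also moved Stag1 to 0.18, Wapl to 0.17 and Nipbl to -0.084, with their calls kept. Of the other cohesin and looping genes, 30 passed with this scaling (14 higher, 16 lower), where 66.4% of all features passed. With the test against a fold change of 1.2 in place of no change, Smc3 (0.24), Stag1 (0.11), Nipbl (-0.15), Wapl (0.10) and Pds5a (0.26) lost their call. That test left 3 of the 10 genes (2 higher, 1 lower, against 8, 6 and 2) and 15 of the other cohesin and looping genes (6 higher, 9 lower, against 26, 10 and 16), and an adjusted p as the only cut-off gave 8 genes in place of 0.

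Leaving out 1 library at a time, with the lone library of a group assumed to vary like the other group, Smc1a ranged from -0.083 (without wt replicate 1, a call) to 0.0020 (without Top2β-null replicate 2). Stag2 ranged from -1.4e-05 (without wt replicate 1) to 0.070 (without Top2β-null replicate 1, a call), and Wapl from 0.077 (without wt replicate 2, no call) to 0.14. The number of the 10 genes past the test ranged from 7 to 9 (5 to 7 higher, 2 to 3 lower) and of the other genes from 25 to 26. The 4 ratios did not change direction. Pds5b, Ctcf, Rad21, Smc3, Pds5a, Stag1 and Nipbl kept their calls in each of these fits.

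Levels per kilobase in wt moved with the gene length. With the longest transcript they were 2698 for Ctcf, 2987 for Smc1a, 3377 for Smc3, 11493 for Rad21, 2076 for Stag1, 2380 for Stag2, 3010 for Wapl, 3407 for Pds5a and 2558 for Pds5b. With counts scaled by the gene total they were 2031 for Ctcf, 2859 for Smc3, 10392 for Rad21, 1054 for Stag1, 1717 for Stag2, 3125 for Nipbl, 2792 for Wapl, 1523 for Pds5a and 1865 for Pds5b.

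The replicate numbers were not shown to pair the libraries (correlation of same-numbered deviations 0.020 over 17952 features). With the replicate block in the model, the log2 fold change was 0.75 for Pds5b and 0.41 for Ctcf, and 8 of the 10 genes and 26 of the other genes passed, so the block changed no call among the 10 genes.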

Other observations

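Some meiotic or germline relatives of these genes were measurable at low counts, and their values were named after they were seen. Stag3, the meiotic STAG subunit, had 77.7 and 63.7 normalized counts in wt and 13.5 and 21.8 in Top2β-null (log2 fold change -1.99, adjusted p = 2.46e-05, edgeR). Smc1b, the meiotic SMC1, had 95.9 and 88.9 in wt and 38.3 and 57.4 in Top2β-null (log2 fold change -0.94, adjusted p = 0.0019, edgeR). Rec8 is given above. Rad21l had 0 counts in every library, and Ctcfl had 0 counts in both wt libraries and 1 in each Top2β-null library, which is within the limit of 3 counts that a count of 0 allows, for counting error only.

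The genes in this paragraph were also named after their values were seen. Of the genes of cohesion establishment, those of the fork protection complex went in opposite directions. Timeless was lower (log2 fold change -0.72 ± 0.027, adjusted p = 8.69e-13, edgeR) and its partner Tipin was higher (0.40, adjusted p = 4.56e-09). Chtf18 (-0.65, adjusted p = 1.03e-11) and Dscc1 (-0.70, adjusted p = 1.52e-09), which form the alternative clamp loader with Chtf8, were lower too. Aurkb, a mitotic kinase that phosphorylates cohesin regulators, was higher (5476 and 5574 against 9663 and 9684 normalized counts, log2 fold change 0.81 ± 0.026, adjusted p = 1.25e-13).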
